A study of Rattus norvegicus with 13 samples.

Results

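Iron regulation and heme breakdown are described here through 10 genes, chosen by name from the 14506 genes that the arrays measured. They are Aco1, Ireb2, Tfrc, Fth1, Slc40a1, Slc11a2, Hmox1, Hmox2, Blvra and Blvrb, each taken at its brightest probe. The set was put together with the paternal-diet differences of at least Aco1 and Hmox2 already known, so every difference between the diet groups below is a description and carries no test. Fat from 13 daughters of Sprague Dawley rats, which are outbred, was measured with 1 array per daughter. Of the fathers, those of 6 daughters had eaten high-fat pellets with 43% fat, and those of 7 daughters had eaten standard laboratory chow with 9% fat. Mating with chow-fed females took place when the fathers were 15 weeks old. All daughters ate chow from weaning at 3 weeks until the harvest of fat at 14 weeks. Per the study's design text, the high-fat fathers were heavier and insulin resistant, and the daughters of both groups had like body weights. Daughters are called by the numbers in their labels (high-fat 619, 620, 624, 629, 660 and 663, and control 622, 627, 631, 656, 658, 662 and 664). The labels name neither the fat depot nor shared fathers or litters, so a p-value here covers only the spread among these arrays. In a piece of tissue, fewer cells of a type and less RNA per cell cannot be told apart.

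A cell that is short of iron takes up more of it and stores less, and the genes described here carry out or control these steps. The cytosolic aconitase, made from Aco1, loses its iron-sulphur cluster and turns into iron regulatory protein 1, and Ireb2 encodes iron regulatory protein 2, which is broken down when iron is plentiful. Both proteins bind hairpins in messenger RNAs, which protects the transcript of the transferrin receptor (Tfrc) and blocks translation of ferritin heavy chain (Fth1) and of the iron exporter ferroportin (Slc40a1). Heme oxygenase, inducible (Hmox1) or constitutive (Hmox2), opens the heme ring to give biliverdin, carbon monoxide and iron, and biliverdin reductases (Blvra, Blvrb) reduce biliverdin to bilirubin. Adipose tissue holds both adipocytes and macrophages that handle iron.

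The promoters of 3 of the genes are shown because Aco1 and Hmox2 are the members whose diet groups did not overlap and because Tfrc is the best known target of iron regulatory proteins. Each sequence is the 250 bases before the annotated start, 5′ to 3′ on the strand of the gene, from the RefSeq promoter table of assembly GRCr8, in which 8 of the 10 genes had an entry (for Hmox2, the first of its listed starts is shown). Capitals mark matches on either strand to ACGTG (the core to which hypoxia-inducible factors bind), TGACNNNGC (the antioxidant response core), CCAAT and GGGCGG (the GC box). They lie at chr5:60055645-60055894 on the plus strand for Aco1, at chr10:11337613-11337862 on the minus strand for Hmox2 and at chr11:81690319-81690568 on the minus strand for Tfrc.
Aco1: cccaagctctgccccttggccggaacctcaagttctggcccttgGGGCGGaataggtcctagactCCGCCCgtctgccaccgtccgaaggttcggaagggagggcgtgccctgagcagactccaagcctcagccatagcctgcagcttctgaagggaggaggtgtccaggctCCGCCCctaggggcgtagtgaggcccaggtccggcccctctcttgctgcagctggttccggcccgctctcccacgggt
Hmox2: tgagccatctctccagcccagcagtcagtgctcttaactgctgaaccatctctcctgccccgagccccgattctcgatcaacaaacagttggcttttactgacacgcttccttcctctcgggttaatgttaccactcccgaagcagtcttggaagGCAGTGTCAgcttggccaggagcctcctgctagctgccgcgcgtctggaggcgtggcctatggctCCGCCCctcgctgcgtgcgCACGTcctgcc
Tfrc: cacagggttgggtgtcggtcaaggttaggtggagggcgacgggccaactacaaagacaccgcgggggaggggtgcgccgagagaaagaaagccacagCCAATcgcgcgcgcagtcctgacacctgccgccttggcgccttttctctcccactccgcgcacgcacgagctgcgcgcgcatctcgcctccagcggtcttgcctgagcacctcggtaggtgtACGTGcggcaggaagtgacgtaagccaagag
The Aco1 window held 3 GC boxes and no match to the other motifs. The Hmox2 window held 1 antioxidant response core, 1 GC box and 1 ACGTG, and the Tfrc window held 1 CCAAT and 1 ACGTG. The letters TATAAA were also searched for and were in none of these windows. Among all 33469 promoter windows of this length, 16.6% held ACGTG, 10.1% TGACNNNGC, 34% CCAAT, 30.5% GGGCGG and 12.9% TATAAA.

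All 10 genes had a probe, 11 in all, since Fth1 had 2, and no filter on dim probes was set. For 9 of the 10, the mean lay above the middle of the genes measured (8.14 on the log2 scale), Hmox1 being the exception. This matters because the arrays differed in the spread of their values. The standard deviation over all probes of an array was 1.86 to 1.96 in high-fat daughters (mean 1.93) and 1.78 to 1.94 in control daughters (mean 1.89), with the smallest on control 658, control 631 and high-fat 660. Bright genes tend to read lower on an array with a narrow spread. Across the 13 arrays, with values centred on their group means, the correlation with array spread was 0.34 to 0.75 for the 10 genes, highest for Blvrb, Ireb2 and Tfrc, against a median of 0.62 for all genes above the middle level. Over such genes, 84.4% had a higher mean in high-fat daughters, with a median difference of 0.09 log2 units, against 58% and 0.03 over all genes. The differences of the members are best read against these figures. In limma's test 0 of 14506 genes passed an adjusted p of 0.05 (0%), with a smallest adjusted p of 0.53, so none of the 10 did.

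Both iron regulatory genes had a higher mean in daughters of high-fat fathers, Aco1 with no overlap between the groups. Aco1 read 11.25, 11.36 and 11.56 (lowest, median and highest) in high-fat daughters and 10.98, 11.10 and 11.22 in control daughters. The lowest high-fat daughter was 660 and the highest control was 622. The group means were 11.38 ± 0.11 (SD, n = 6) and 11.11 ± 0.10 (SD, n = 7), a difference of 0.27 ± 0.06 (SE), or 1.21 times. Ireb2 read 9.42, 9.55 and 9.74 in high-fat daughters and 9.17, 9.44 and 9.52 in control daughters. Its groups overlapped, with 3 high-fat daughters above every control, and control 658 stood lowest. The difference was 0.16 ± 0.07 (SE) in log2 units. With array spread as a covariate, a setting added after the data were seen, the difference was 0.22 for Aco1 and 0.08 for Ireb2, and without the 3 arrays of smallest spread it was 0.27 and 0.14.

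Tfrc, the receptor that brings transferrin-bound iron into the cell, had the widest range of the iron genes. It read 7.87, 8.53 and 8.89 in high-fat daughters and 7.68, 8.36 and 8.47 in control daughters. The lowest array of each group, high-fat 660 and control 658, was also one of the 3 with the smallest spread. Above all controls stood 4 of the 6 high-fat daughters. The difference was 0.25 ± 0.16 (SE), and it was 0.29 without the 3 arrays of smallest spread, 0.15 without control 658 and 0.37 without high-fat 660. With spread as a covariate it was 0.03. Slc11a2, the divalent metal transporter that moves iron out of endosomes, read 9.61, 9.70 and 10.02 in high-fat daughters and 9.32, 9.55 and 9.67 in control daughters. The groups overlapped, with high-fat 624 highest and control 658 lowest. Its difference was 0.20 ± 0.08 (SE), and 0.12 with spread as a covariate.

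Fth1, for iron storage, had group means of 13.18 ± 0.08 (SD, n = 6) in high-fat and 13.17 ± 0.12 (SD, n = 7) in control daughters, and Slc40a1, for export, had a higher mean in high-fat daughters. Fth1, the ferritin subunit that oxidises iron for storage, read 13.08, 13.16 and 13.29 in high-fat daughters and 13.03, 13.23 and 13.30 in control daughters, and the groups lay on top of each other. Its difference was 0.00 ± 0.06 (SE), and the second Fth1 probe also gave 0.00. With 1 array left out it lay between -0.02 and 0.03. Slc40a1, the only known cellular iron exporter in mammals, read 10.55, 10.79 and 11.16 in high-fat daughters and 10.22, 10.63 and 10.88 in control daughters. In the control group the values were split, with 627, 658 and 664 at 10.31, 10.25 and 10.22 and the other 4 at 10.63 to 10.88. The difference was 0.25 ± 0.14 (SE). It was 0.13 with spread as a covariate and 0.31 without the 3 arrays of smallest spread.

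**Figure D1:**
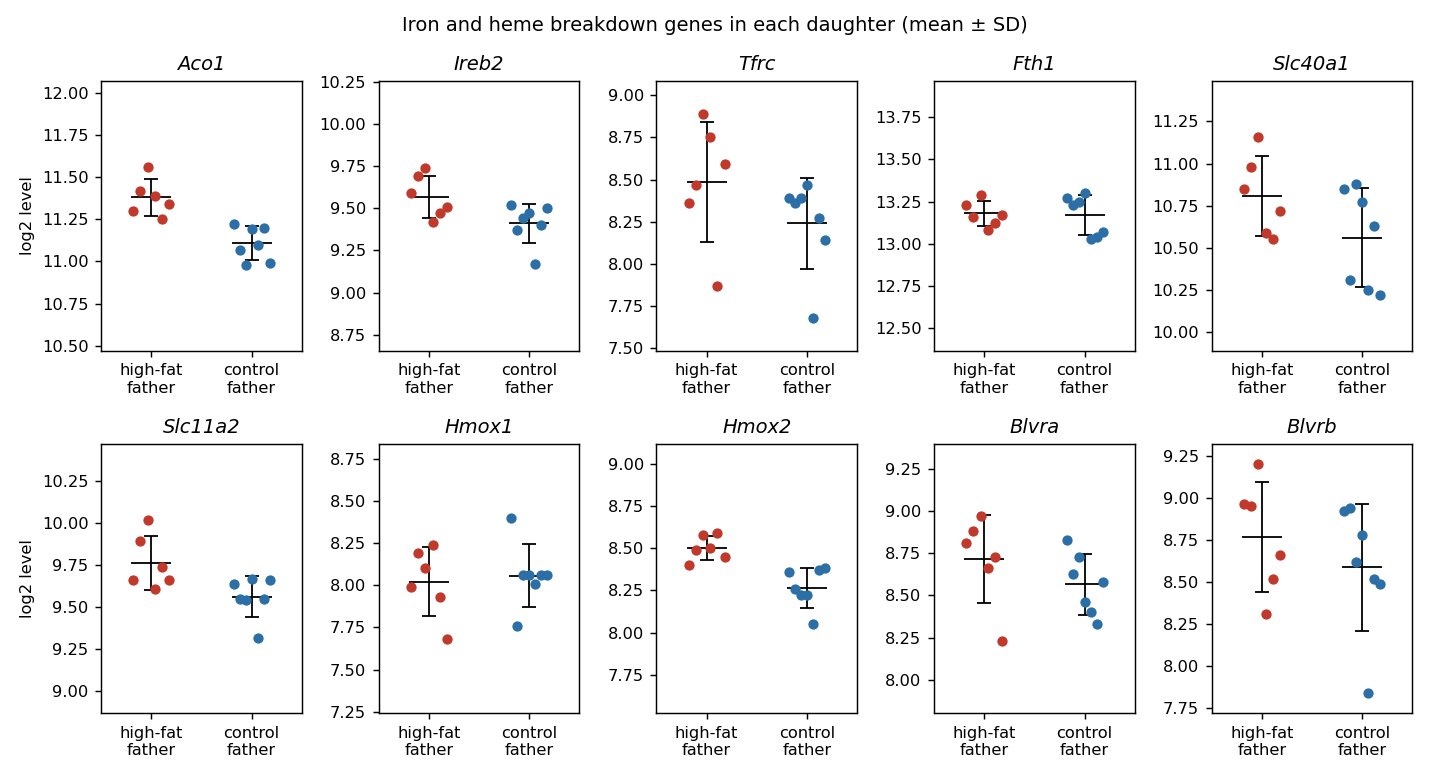
Log2 level (vertical axes, all 1.6 units high) of each of the 10 genes in 6 daughters of high-fat fathers (red) and 7 daughters of control fathers (blue), with the mean and SD in black. Only Aco1 and Hmox2 show no overlap, and Fth1 and Hmox1 show group means within 0.05 of each other.

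Of the heme oxygenases, the constitutive Hmox2 was higher in every high-fat daughter than in any control, and the groups of the inducible Hmox1 overlapped. Hmox2 read 8.40, 8.49 and 8.59 in high-fat daughters and 8.05, 8.26 and 8.38 in control daughters. High-fat 619 lay just above control 664 and control 662 (8.37 to 8.38). The means were 8.50 ± 0.07 (SD, n = 6) and 8.27 ± 0.12 (SD, n = 7), a difference of 0.23 ± 0.06 (SE), or 1.18 times. Hmox1 read 7.68, 8.04 and 8.24 in high-fat daughters and 7.76, 8.06 and 8.40 in control daughters. Its extremes were high-fat 663 at the low end and control 622 at the high end. The difference was -0.04 ± 0.10 (SE), and leaving out control 622 or high-fat 663 gave 0.02 or 0.03. Groups that do not overlap with the high-fat group higher were found for 0.0551% of all genes, 8 of 14506, and 2 of the 10 members are among these 8 because such values brought them into the set. The reverse, with the high-fat group lower, was found for 0.0276% of all genes and for 0 members.

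The biliverdin reductases varied more within the groups than between them. Blvra, which makes the bilirubin of adults, read 8.23, 8.77 and 8.97 in high-fat daughters and 8.33, 8.58 and 8.83 in control daughters. High-fat 663 was the lowest of all 13. The difference was 0.15 ± 0.11 (SE), and it was 0.10 without high-fat 624 and 0.25 without high-fat 663. Blvrb, an NADPH-dependent flavin and biliverdin reductase that is abundant in red cells, read 8.31, 8.80 and 9.20 in high-fat daughters and 7.84, 8.62 and 8.94 in control daughters. Control 658 lay 0.65 below the next control. The difference was 0.18 ± 0.18 (SE). It was 0.06 without control 658, 0.27 without high-fat 629 and -0.06 with spread as a covariate.

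Over the set, 9 of 10 genes had a higher mean in high-fat daughters, and the median difference was 0.19 log2 units. Beside these stand 84.4% and 0.09 over all genes above the middle level. High-fat 624 held the highest value for 7 of the 10 genes, and control 658 the lowest for 6. Over all genes, high-fat 624 was highest for 16.1% and control 658 lowest for 36%. These shares include dim genes and are not given for genes above the middle level, where 9 of the 10 members lie. With spread as a covariate, 7 of 10 had a higher mean and the median was 0.08, against 54% and 0.01 over the genes above the middle level. The Aco1 and Hmox2 differences, 0.22 and 0.19, were the largest of the 10 in that fit. Both genes entered the set with their differences on these same arrays known, so this rank is a description and no support.

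**Figure D2:**
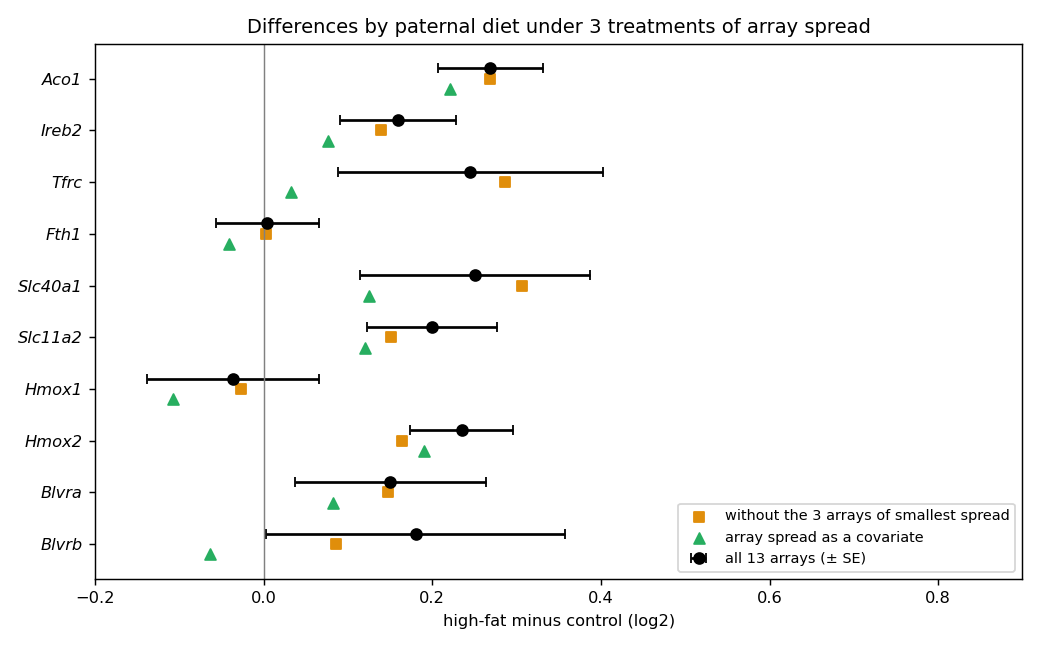
Difference, high-fat minus control in log2 units (horizontal axis), for each gene over all 13 arrays with its standard error (black), without the 3 arrays of smallest spread (orange squares) and with array spread as a covariate (green triangles). Tfrc moves between 0.29 and 0.03, and Aco1 between 0.27 and 0.22.

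The daughters' numbers fall in 2 ranges whose meaning the labels do not give. In daughters 619 to 631 (4 high-fat, 3 control) the differences were 0.33 for Aco1, 0.21 for Hmox2 and 0.24 for Tfrc. In daughters 656 to 664 (2 high-fat, 4 control) they were 0.17 for Aco1, 0.26 for Hmox2 and 0.09 for Tfrc. Hmox1 had a difference of 0.06 in the first range and of -0.24 in the second. No test of the difference between ranges was made. Of the other genes, Ireb2 (0.17 and 0.10), Slc40a1 (0.22 and 0.17), Slc11a2 (0.21 and 0.15) and Blvra (0.10 and 0.04) had the same sign in both ranges, as did Blvrb (0.03 and 0.18), and Fth1 did not (-0.06 and 0.03).

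Markers of the tissue were read on the same arrays. Adipocyte markers were bright in every piece, with adiponectin (Adipoq) between 13.64 and 13.96, so the markers bear out the label of fat. The mean level of 10 adipocyte markers was 12.06 to 12.27 in high-fat daughters and 12.00 to 12.11 in control daughters, 0.13 higher in high-fat daughters by the difference of means, with 9 of the 10 markers higher (two-sided exact permutation test, p = 0.0052, adjusted over 7 marker lists p = 0.037). It was the only list to pass. Over all genes above the middle level, 84.4% also had a higher mean in high-fat daughters, with a median difference of 0.09. The adipocyte level was not fitted with array spread as a covariate. It did not pass without the 3 arrays of smallest spread (difference 0.12, adjusted p = 0.28 in the exact permutation test), nor when any of the 7 controls or high-fat 624 was left out (adjusted exact permutation p of 0.053 to 0.076). Macrophage markers, 14 of 15 measured, had a mean level of 10.13 to 10.40 in high-fat daughters and 10.01 to 10.48 in control daughters, with a difference of 0.03. Erythroid markers, 8 of 12 measured, stood at 8.45 to 9.21 and 8.26 to 8.80 in high-fat and control daughters, with a difference of 0.17. Skeletal muscle markers (10 of 12) stood at 7.39 to 12.03 in high-fat and 7.39 to 12.11 in control daughters, raised in high-fat 629 and 619 and in control 662 and 664. Brown and beige fat markers (6 of 9) stood at 5.99 to 7.80 in high-fat and 6.03 to 7.47 in control daughters. The mesothelial level (6 of 8 markers, difference -0.34) and the hepatocyte level (6 markers, 0.11) overlapped between the groups. Without high-fat 663 the hepatocyte difference was -0.07. The part of these tissue levels in the differences of the iron and heme genes was not tested. Without the 4 arrays with most muscle signal, the difference was 0.28 for Aco1 and 0.30 for Hmox2.

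How the members vary with these tissue levels does not use the diet contrast when values are centred on the group means, so it was tested, over 30 relations of 10 genes with 3 marker levels and with permutations within groups. The closest relation was that of Blvra with the erythroid level, the mean of 8 red cell markers that include 3 globin genes. The more erythroid signal a piece of fat held, the lower was its Blvra level. Pearson's r was -0.91 and Spearman's rho -0.94 over 13 arrays (permutation p adjusted over the 30 relations, 0.0039 and 0.0027). In high-fat daughters, 663 had the highest erythroid level, 9.21, and the lowest Blvra, 8.23, while 624 had the lowest erythroid level, 8.45, and the highest Blvra, 8.97. In control daughters, 622 had the lowest erythroid level, 8.26, and the highest Blvra, 8.83. Without the arrays farthest from the middle, high-fat 663 and control 622, r was -0.75. It was -0.67 within daughters 619 to 631 and -0.93 within daughters 656 to 664, and -0.89 with array spread as a further term. Of all 14506 genes, Blvra itself had the lowest correlation with the erythroid level. Among single markers the r with Blvra was -0.80 for Hbb and for Hbb-b1, both beta globins, -0.71 for Hba-a3, an alpha globin, -0.68 for Slc4a1, the red cell anion exchanger, and -0.53 for Epb42, a red cell membrane protein. It was -0.37 for Rhag, -0.33 for Ahsp, the alpha globin chaperone, and -0.18 for Klf1, an erythroid transcription factor.

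**Figure D3:**
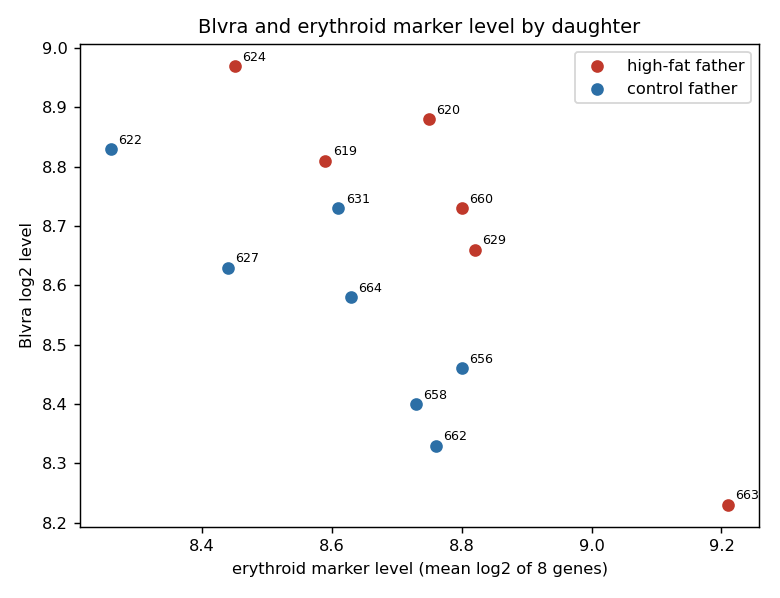
Blvra log2 level (vertical axis) against the mean log2 level of 8 erythroid markers (horizontal axis) in daughters of high-fat fathers (red) and control fathers (blue), labelled by number. In both groups the daughters with more erythroid signal have less Blvra, from 622 and 624 at the upper left to 663 at the lower right.

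High-fat 629 and 663 and control 658 and 662 had the highest brown and beige levels, at 7.08 to 7.80. The other 9 arrays stood at 5.99 to 6.37. High-fat 663, control 662 and control 658 had the lowest Blvra values of all, at 8.23, 8.33 and 8.40. High-fat 629 read 8.66, above controls 627, 664 and 656. Because the brown and beige level fell into separate clusters, no correlation with it is given. Its part in the relation of Blvra with the erythroid level was not tested beyond leaving these 4 arrays out. Without these 4 arrays the r of Blvra with the erythroid level was -0.82, and the relation did not pass over the 9 arrays left (adjusted permutation p = 0.19). The other members were less tied to the erythroid level, with r of -0.21 (Tfrc) to -0.57 (Blvrb), and none of these passed.

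Of the members, 4 followed the adipocyte level instead, so that pieces with more adipocyte signal had more of each. They were Ireb2 (r = 0.83, rho = 0.88, adjusted permutation p = 0.0039 for r), Blvrb (r = 0.82, rho = 0.78, adjusted p = 0.0039), Slc11a2 (r = 0.79, rho = 0.86, adjusted p = 0.021) and Fth1 (r = 0.65, rho = 0.63, adjusted p = 0.048 for r and 0.070 for rho), by the same permutation tests. Leaving out high-fat 624 and 629, farthest from the middle, gave 0.78, 0.78, 0.70 and 0.58 for these genes in turn. In daughters 619 to 631 the r was 0.91 for Ireb2, 0.96 for Blvrb, 0.86 for Slc11a2 and 0.84 for Fth1, and in daughters 656 to 664 it was 0.87, 0.83, 0.74 and 0.71. Correlations as high as that of Ireb2 with the adipocyte level were found for 1.31% of all genes, and as high as that of Fth1 for 12%. With array spread as a further term the r of the 4 genes was 0.76, 0.75, 0.69 and 0.52, and none of the 4 relations passed. Without high-fat 624, and likewise without control 658, Slc11a2 and Fth1 did not pass (for Slc11a2, r = 0.69 and 0.78, adjusted permutation p = 0.11 and 0.084). For Fth1 the relation was lost when any of 9 single arrays was left out (r = 0.57 to 0.66 in these, adjusted permutation p of 0.061 to 0.15). Hmox1, Hmox2 and Aco1 were less related to the adipocyte level (r = 0.07, 0.31 and 0.47).

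With macrophage markers no Pearson correlation passed. Tfrc (r = 0.66, rho = 0.70) and Slc40a1 (r = 0.65, rho = 0.71) had the highest, with an adjusted permutation p of 0.072 and 0.12 for r. By rank, Tfrc and Hmox1 (r = 0.51, rho = 0.69) each had an adjusted permutation p of 0.044. With array spread as a further term the r was 0.48 for Tfrc (adjusted permutation p = 0.40), 0.52 for Slc40a1 and 0.39 for Hmox1. Leaving out controls 622 and 658 gave an r of 0.50 for Tfrc, 0.50 for Slc40a1 and 0.44 for Hmox1. Within daughters 619 to 631 these 3 values were 0.47, 0.46 and 0.84, and within daughters 656 to 664 they were 0.85, 0.82 and 0.03.

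Among themselves, the closest genes were Ireb2, Slc11a2, Blvrb and Fth1. All 45 pairs had a positive r, and 3 pairs passed the permutation test of Pearson's r adjusted over 45 pairs, while none passed by Spearman's rho. These were Ireb2 with Slc11a2 (r = 0.91, rho = 0.86, adjusted permutation p = 0.011 for r and 0.0504 for rho), Fth1 with Blvrb (r = 0.82, rho = 0.78, adjusted p = 0.011 and 0.0504) and Ireb2 with Blvrb (r = 0.85, rho = 0.73, adjusted p = 0.024 and 0.083). Of all other genes, 0.77%, 0.85% and 3.6% had at least as high an r with the first gene of these pairs in turn. Without the 2 arrays farthest from the middle of the first gene of each pair, r was 0.82, 0.82 and 0.61. In daughters 619 to 631 it was 0.89, 0.86 and 0.81, and in daughters 656 to 664 it was 0.94, 0.69 and 0.93. Array spread moved with all of them, and with it as a further term the r was 0.85, 0.77 and 0.65, and the pair of Ireb2 and Blvrb did not pass (adjusted permutation p = 0.42). The next pairs were Slc11a2 with Blvrb (0.76) and Ireb2 with Slc40a1 (0.71), which did not pass. Without control 658 none of the 45 pairs passed, and likewise without high-fat 624. Aco1 and Hmox2, the genes whose diet groups did not overlap, had an r of 0.20 with each other (adjusted permutation p = 0.61), Aco1 and Ireb2 one of 0.39, and Hmox1 and Hmox2 one of 0.27. Blvra and Blvrb, the pair of reductases, had an r of 0.54 (adjusted permutation p = 0.15).

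**Figure D4:**
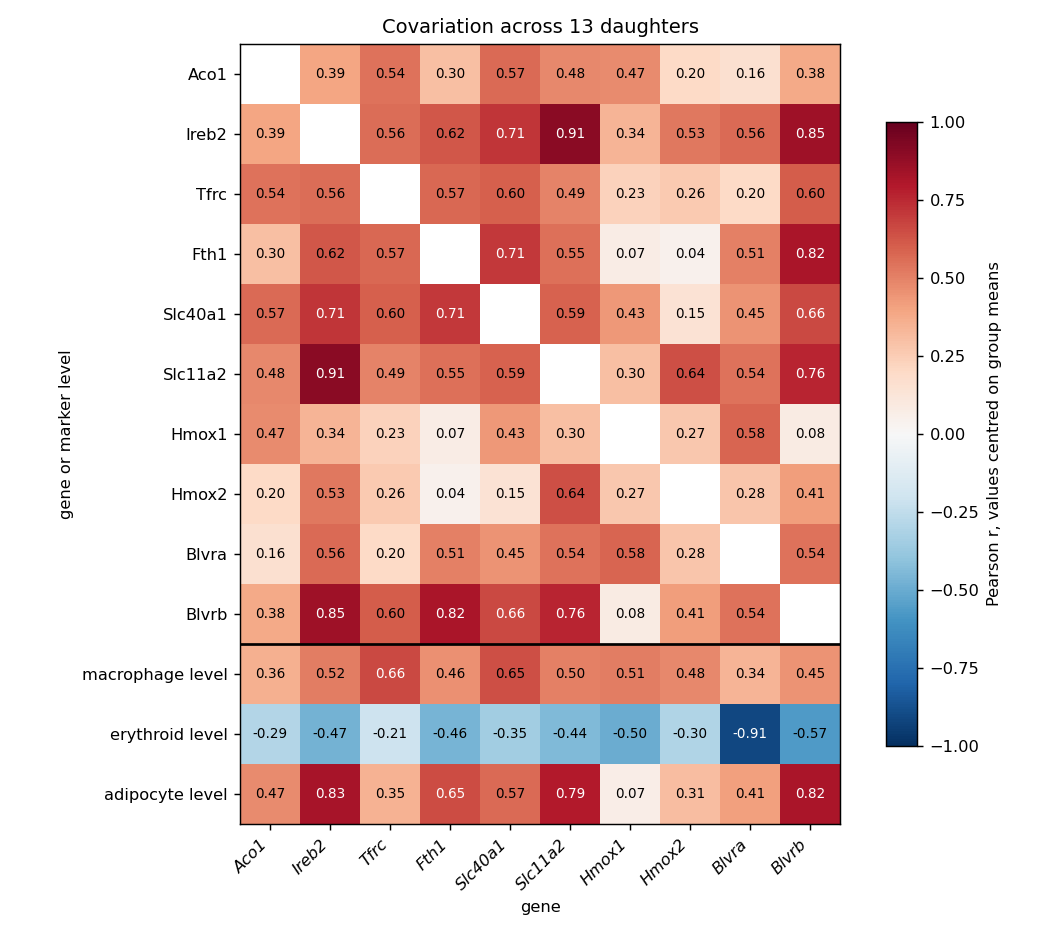
Pearson correlation (colour and printed value) across 13 daughters, with values centred on their group means, between the 10 genes and, below the line, with 3 marker levels. Ireb2 with Slc11a2 (0.91) is the darkest red pair of genes, Ireb2, Blvrb, Slc11a2 and Fth1 are the 4 reddest in the adipocyte line, and Blvra is dark blue with the erythroid level (-0.91).

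Genes whose within-group pattern was most like that of Aco1 were Nrn1 (r = 0.89), Mrto4 (0.88), Nsun6 (0.84), Tarbp2 (0.83) and Pir (0.83), out of 14493 named genes over 13 arrays. Nearest to Hmox2 were RT1-S3 (0.95), Slamf9 (0.92), Blnk (0.91), Itgad (0.90) and Fmnl1 (0.90). Nearest to Hmox1 were Camkk1 (0.90), Rpl13a (0.86), Cdk5rap2 (0.79), Me2 (0.79) and Smad7 (0.77). These are the highest of many correlations and carry no test. Beside 0.23 for Hmox2, the difference between the diet groups was 0.19 for RT1-S3 and -0.08 for Slamf9, -0.16 for Blnk, -0.11 for Itgad and -0.06 for Fmnl1.

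Genes around the set were read from 7 lists of the iron and heme pathways, 84 of 98 genes measured. High-fat daughters had the higher mean for 68 of these and the lower for 16, with a median difference of 0.09. Over all genes 58% had the higher mean, with a median of 0.03, and over genes above the middle level 84.4%, with a median of 0.09. The share in the lists is near that of bright genes. Of the 84, 0 passed limma's test over all genes (smallest adjusted p = 0.53). At an unadjusted p under 0.05, the limma fit gave 11 higher and 1 lower of the 84, or 14.3%. Over all genes, 5.42% met it with the high-fat group higher and 2.54% with it lower, 7.96% in either direction. Among genes above the middle level, fitted alone, 661 of 7253 met it. The count of 12 in the lists was 2 with array spread as a covariate, 4 to 5 without high-fat 619, control 631 or control 658, 7 without high-fat 620 and 3 without high-fat 624.

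Assembly of iron-sulphur clusters, the cofactor that Aco1 carries when it is an aconitase, was read from 20 measured genes of 27. All 20 had a higher mean, with a median of 0.11, beside 84.4% and 0.09 over all genes above the middle level. The 84.4% is the share to read beside the 20 genes, since both come from the same fit. With array spread as a covariate the share over genes above the middle level was 54%, and the share in this list is not given for that fit. In the list, 4 genes had an unadjusted p under 0.05 in limma. Nfs1, the cysteine desulphurase that supplies the sulphur, read 9.45, 9.59 and 9.73 in high-fat daughters and 9.31, 9.39 and 9.52 in control daughters, a difference of 0.18 ± 0.06 (SE), with 5 of 7 controls below every high-fat daughter. Iscu, the scaffold on which clusters are built, read 10.40, 10.58 and 10.78 in high-fat daughters and 10.08, 10.45 and 10.54 in control daughters, a difference of 0.23 ± 0.08 (SE). The chaperones Hscb and Hspa9 differed by 0.20 ± 0.09 and 0.17 ± 0.08 (SE). Each of the 4 had an adjusted p of 0.53 in limma.

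Heme synthesis had the highest median of the 7 lists, 0.15, with 9 of 10 measured genes higher and 3 at an unadjusted p under 0.05. Beside these counts, 58% of all genes and 84.4% of genes above the middle level were higher. Uros and Ppox lay below that level, and no share is given for such genes. In limma, 7.96% of all genes had an unadjusted p under 0.05. Uros, uroporphyrinogen III synthase, differed by 0.28 ± 0.13 (SE), with 3 high-fat daughters, 624 and 619 at 7.98 and 7.79 and also 620, above the highest control at 7.37. All 3 are among daughters 619 to 631, where the difference was 0.40, and in daughters 656 to 664 it was -0.00017. Without high-fat 624 it was 0.18. Fech, ferrochelatase, which puts iron into heme, read 8.62 to 8.69 in all high-fat daughters and 8.10 to 8.70 in control daughters, a difference of 0.19 ± 0.09 (SE). Alad, the enzyme before the first pyrrole ring is joined to others, differed by 0.21 ± 0.10 (0.13 without high-fat 624), and Ppox, protoporphyrinogen oxidase, by 0.16 ± 0.08 (SE). The adjusted p in limma was 0.53 for all 4.

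Of partners of heme breakdown, 11 of 12 were higher, with a median of 0.06, and 2 had an unadjusted p under 0.05. The shares to read beside these and the counts below are again 58% of all genes and 84.4% of genes above the middle level higher. Nqo1 and Abcb6 lay below that level, and no share is given for such genes. For the unadjusted p in limma the share is 7.96% of all genes. Por, the reductase that feeds electrons to heme oxygenase, read 10.39, 10.59 and 10.76 in high-fat daughters and 10.27, 10.41 and 10.49 in control daughters, a difference of 0.17 ± 0.06 (SE). Its adjusted p in limma was 0.53, and 4 high-fat daughters lay above every control. Keap1, which holds the transcription factor Nrf2 in check, differed by 0.15 ± 0.07 (SE). The Nrf2 targets Gclm and Nqo1 differed by 0.22 ± 0.10 and 0.34 ± 0.21 (SE), with unadjusted p of 0.051 and 0.13 in limma. They are named because they are among the 4 genes of the list with the smallest p. The other Nrf2 targets of the list are not given here. Hmox1, a member and another Nrf2 target, was at -0.04. Of 10 heme transport and scavenging genes 7 were higher, with a median of 0.08, among them Abcb6, a porphyrin transporter (0.18 ± 0.07), Pgrmc1, a heme-binding membrane protein (0.15 ± 0.06), Flvcr2 (0.15 ± 0.07) and Slc46a1, a folate and heme carrier (0.09 ± 0.05, all SE). The Abcb6 difference was 0.28 in daughters 619 to 631 and -0.01 in daughters 656 to 664.

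Lists for iron uptake and for iron storage, export and hormonal control were mixed. Iron uptake had 9 of 14 genes higher and a median of 0.04, and none had an unadjusted p under 0.05. The 4 with the smallest p were Ncoa4, the receptor that delivers ferritin for breakdown (0.12 ± 0.06), the ferrireductases Steap3 (0.14 ± 0.08) and Steap4 (0.13 ± 0.07), and Mcoln1, an endolysosomal channel (0.10 ± 0.06). Storage, export and control also had 9 of 14 higher and a median of 0.04. The 1 lower gene at an unadjusted p under 0.05 in limma was mitochondrial ferritin (Ftmt), with an adjusted p of 0.53. Its level lay below the middle of the genes measured (8.14), and the share of such dim genes that were lower is not given here. Ftmt read 7.24, 7.35 and 7.52 in high-fat daughters and 7.32, 7.52 and 7.67 in control daughters, a difference of -0.15 ± 0.07 (SE). Pcbp2, an iron chaperone, Fbxl5, the ligase subunit that marks Ireb2 protein for destruction, and Hfe differed by 0.10 ± 0.07, 0.09 ± 0.07 and 0.08 ± 0.07 (SE). Other transcripts that carry iron-responsive hairpins, 4 of 5 measured, had a median of 0.09. They were Epas1 (0.10 ± 0.08), Alas2 (0.35 ± 0.28), Cdc42bpa (0.08 ± 0.08) and Cdc14a (-0.04 ± 0.09, all SE). Alas2, the erythroid form of the first enzyme of heme synthesis, read 9.36 to 10.87 in high-fat and 8.94 to 10.30 in control daughters, lowest in control 622, where the erythroid level was also lowest.

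**Figure D5:**
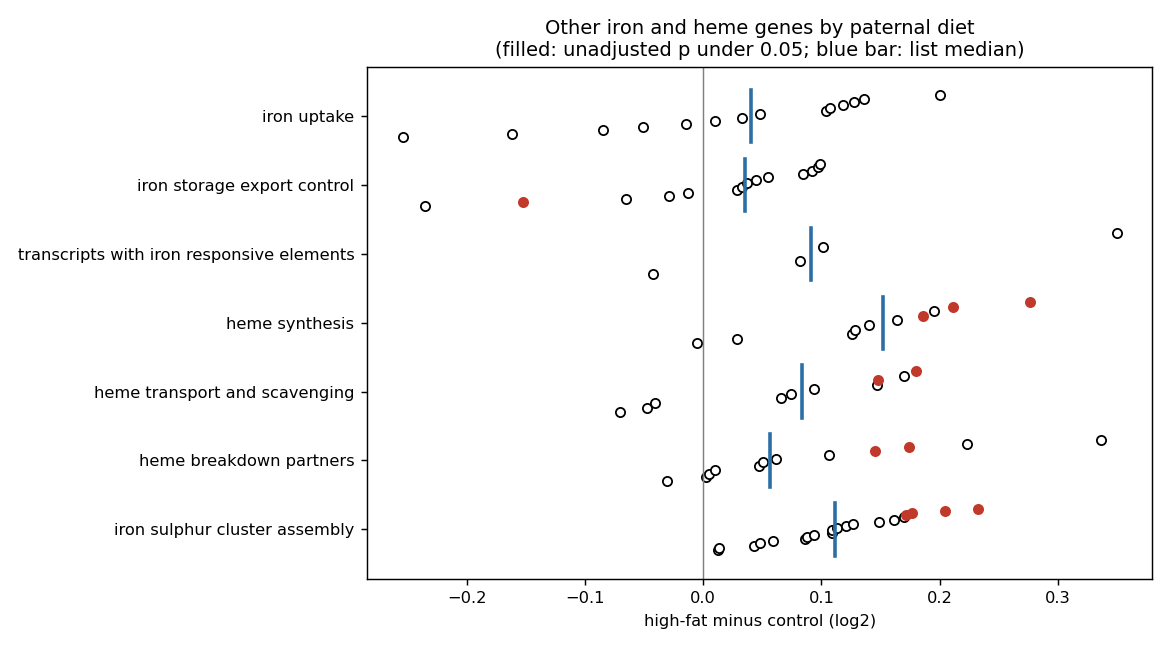
Difference, high-fat minus control in log2 units (horizontal axis), of each measured gene in 7 iron and heme lists outside the 10 genes. Filled points have an unadjusted p under 0.05 in limma, 11 to the right of 0 and 1 to the left, and blue bars mark list medians between 0.04 and 0.15.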

How the data were processed

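Fat RNA of 13 rats was measured on Affymetrix arrays with biotin-labelled cRNA. The deposited values are log2 levels of 29214 probes, made by the authors with RMA and Partek per the submitters' processing notes, with versions not given in the sources used here. Values of 3.24 to 14.54 show the log2 scale. RMA brings arrays toward a common distribution, and the spread that remained differed between arrays. Signal over background was not assessed, and precision is limited by the number of arrays. Pairwise correlations of arrays were 0.946 to 0.995, so no array was a copy of another.

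Probes were named from the platform annotation, 15310 with 1 symbol, and the brightest probe per symbol gave 14506 genes. The RefSeq gene table of GRCr8 held the Entrez identifiers of 15279 probes. Groups were compared with limma 3.58.1 in R 4.3.3, high-fat minus control, with Benjamini-Hochberg adjustment over all genes, a threshold of 0.05 and no covariate, since the labels give none. Marker levels are mean log2 values of a list, compared by exact permutation over 1716 arrangements. Correlations used values centred on group means and 100000 permutations within groups (20000 in alternatives). The 4th marker level planned for them, brown and beige fat, fell into clusters and was left out.

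The members, lists, named-gene rule and the choice of alternatives were made with earlier results of these data known. The rule named all members, up to 4 genes with the smallest p per list, the 5 genes most like Aco1, Hmox1 and Hmox2, the highest correlation with each marker level and the 5 closest pairs. Probes were matched by symbol, and 14 list genes had no probe with a single symbol and were not analysed here. Alternatives were renewed quantile normalization, centring on the median, mean of probes, each array left out, the number ranges, other limma settings and, added after seeing the data, array spread and sets of arrays. The fits and permutations were tested on simulated data.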

Additional observations from a re-analysis of the deposited data

Results flagged for a closer look

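In 90 groups of arrays tested for a single value far from the rest, 7 were found, and chance gives about 1 in 20. The groups reuse the same 13 arrays, so the 7 are not independent and cannot be weighed against that rate. Control 658, the array of smallest spread, was the low value in 6 of them, at 7.68 for Tfrc (next control 8.14), 9.32 for Slc11a2 (9.54), 7.84 for Blvrb (8.49), 8.62 for Steap3 (8.93), 10.56 for Steap4 (10.85) and 10.57 for Pgrmc1 (10.83). High-fat 663 had a hepatocyte marker level of 8.77, against 7.86 in the next high-fat daughter, and its transthyretin (Ttr) level was 12.75, where the middle array read 6.46. Of the other hepatocyte markers, Apoa1, Serpina1 and Fgb were nowhere above 7.12, 7.02 and 6.14, with middle arrays at 7.06, 6.77 and 6.00. Alb and Cyp2e1 ranged more widely over the arrays, from 10.73 to 12.94 and from 6.80 to 10.22. The part of array spread in the low values of control 658 was not tested.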

How the results depend on the processing

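No paired analysis was possible because the daughters' numbers are not shared between groups. No gene passed limma's adjusted p of 0.05 under any of the alternatives run, inside or outside the lists. At an unadjusted p under 0.05, 1155 genes became 550 without the muscle-rich arrays, 407 with array spread as a covariate, 611 with number range as a covariate, 661 among genes above the middle level, 2179 with array weights, 1990 in daughters 619 to 631, 135 in daughters 656 to 664 and 508 to 2508 with 1 array left out (508 without high-fat 624, 2508 without high-fat 660). The count of 12 genes in the iron and heme lists became 7 after renewed quantile normalization, 4 with number range, 1 in daughters 656 to 664, 2 with array spread, 6 without the 3 arrays of smallest spread and 3 to 16 with 1 array left out. Between 8 (without control 658) and 10 (without control 622) members had a higher mean with 1 array left out.

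The 1 marker level past the test became 0 without the muscle-rich arrays, without the 3 arrays of smallest spread and without the brown-rich arrays, and 0 to 1 with 1 array left out, its adjusted exact permutation p then being 0.0088 to 0.076. The 5 relations with marker levels became 1 after quantile normalization, with array spread or without the brown-rich arrays, 2 without the 3 arrays of smallest spread, 8 without the muscle-rich arrays and 3 to 7 with 1 array left out. The r of Blvra with the erythroid level stayed between -0.94 and -0.83 with 1 array left out. The 3 pairs of members became 5 after centring, 8 without the muscle-rich arrays, 0 without the 3 arrays of smallest spread or the brown-rich arrays, and 0 to 7 with 1 array left out.

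Some signs turned. In daughters 619 to 631 Hfe was -0.012 and Cdc14a 0.027, in daughters 656 to 664 Uros was -0.00017 (0.28 over all arrays) and Abcb6 -0.011 (0.18 over all arrays), and with array spread Cdc42bpa was -0.027 and Blvrb -0.063. With 1 array left out, ranges crossed 0 for the members Fth1 (-0.019 to 0.026) and Hmox1 (-0.085 to 0.032), for Cdc14a (-0.086 to 0.0082) and for the macrophage (-0.0091 to 0.070), skeletal muscle (-0.95 to 0.32), brown and beige (-0.18 to 0.23) and hepatocyte (-0.071 to 0.19) levels. Without the brown-rich arrays the macrophage level was -0.045 and the brown and beige level -0.13. The cause was not tested.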
